A study of Meleagris gallopavo with 3 samples.

Results

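Small leucine-rich proteoglycans are secreted proteins of the extracellular matrix, and 8 of them together with dermatopontin, a small protein that binds decorin, were followed through 3 cultures of turkey (Meleagris gallopavo) satellite cells. The members were taken by gene symbol among 23976 genes, by a rule that uses no measured value. The list of symbols was itself chosen with earlier results of these data known. Of 10 symbols listed, 9 were found, namely DCN, ASPN, LUM, FMOD, KERA, PRELP, OGN, PODN and DPT, and biglycan (BGN) was not analysed here. All 9 were among the 11022 genes that reached 5 CPM in at least 1 library, where CPM are counts divided by the exon reads of the library and scaled to a common total.

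Satellite cells, the stem cells of skeletal muscle, were taken from the breast muscle of turkeys aged 1 day and were cultured for 2 weeks before being split into 3 groups. Suspension cells were kept for 3 months in a rotated Erlenmeyer flask with 15% chicken serum. Adherent undifferentiated cells grew on gelatin with 15% chicken serum, and adherent differentiated cells were switched to DMEM with 4% horse serum, in which they fused to myotubes. Each group was sequenced as 1 library made from the pooled RNA of 3 experiments, so no group has a replicate, and no SD or test between groups can be given. A difference between 2 libraries is a difference between those libraries, and the spread between cultures is unknown.

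Each library is called here by the heading of its count column, which is Suspension, Adherent or Differentiating. The headings were used in 2 ways. The ratio column named for Suspension against Adherent equalled Adherent over Suspension counts in 100% of 12196 genes within 0.02 on the log2 scale. The ratio named for Suspension against Differentiating, however, equalled Differentiating over Adherent in 100% of 12207 genes, and the one named for Adherent against Differentiating equalled Differentiating over Suspension in 100% of 12154. Which of the headings Suspension and Adherent is right could not be settled from the deposited files. The paper listed DPT as far lower in adherent undifferentiated than in suspension cells, which is the direction of the exchanged headings. Counts at least 2-fold higher or lower, for the members and most gene lists, are therefore also given with Suspension and Adherent exchanged. So are the members' log2 ratios that change sign. Other results are given as headed only, among them levels, library orders, larger folds, makeup, neighbours, like patterns, intron shares and marker sums. In these, an exchange of the headings would swap the names Suspension and Adherent. The Differentiating column was used in 1 way throughout. The libraries held 23844835, 17444865 and 22816125 exon reads in the order Suspension, Adherent, Differentiating, and 1 read was worth 0.0419, 0.0573 and 0.0438 CPM. Intron reads made up 15.2%, 24.3% and 12.0% of gene reads in that order.

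The leucine-rich repeats of these proteoglycans form a curved solenoid that binds fibrillar collagens and sets the spacing and thickness of the fibrils. Several members also bind growth factors, and decorin is known for holding transforming growth factor beta and myostatin, both of which restrain muscle growth. They are grouped in classes by sequence and gene structure, and their side chains differ: decorin carries chondroitin or dermatan sulphate, while lumican, fibromodulin and keratocan can carry keratan sulphate. In muscle they are made largely by connective tissue cells, and myogenic cells make decorin too.

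The genes lie in a few tight groups on the turkey chromosomes, at positions given as in the deposited table, whose genome build was not named there. On chromosome 1 the class II genes KERA (42335291 to 42346604) and LUM (42355966 to 42368632) lay beside the class I gene DCN (42387854 to 42425808). On chromosome 14 the class I gene ASPN (2959871 to 2974511) was near the class III gene OGN (3002633 to 3014572). On chromosome 28 the class II genes FMOD (4861804 to 4868671) and PRELP (4891975 to 4901447) were neighbours. PODN, of class V, was on chromosome 10 (22751789 to 22778664), and DPT was alone on chromosome 1 (81923532 to 81950628).

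The members were far higher in the Differentiating library than in the other libraries when summed. Their summed level was 893 CPM in Suspension (95% counting interval 881 to 905), 2499.8 CPM in Adherent (2476 to 2523) and 6589.9 CPM in Differentiating (6557 to 6623). The Differentiating sum was thus 7.38-fold that of Suspension and 2.64-fold that of Adherent, both larger than the counting error. Counting intervals, here and elsewhere, are exact and cover counting error only. In RNA of whole cultures, fewer cells of a type and less RNA per cell cannot be told apart.

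**Figure D1:**
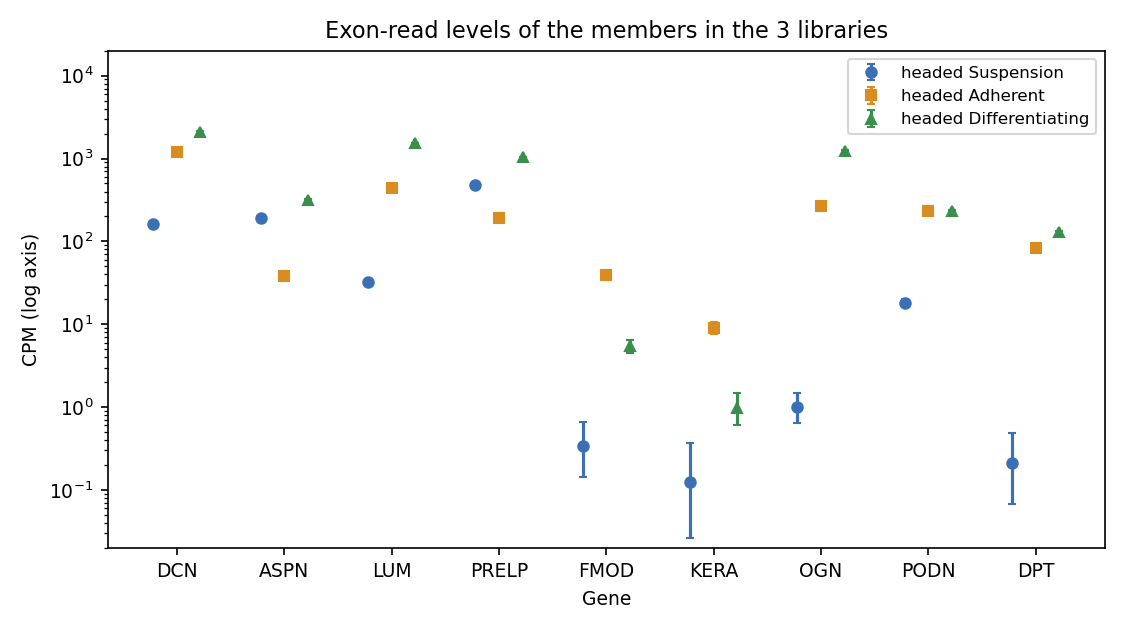
Level of each member in CPM on a log axis in the 3 libraries, named by the headings of their count columns, with exact 95% counting intervals as bars. LUM ran from 32.0 CPM in Suspension to 1521 CPM in Differentiating, whereas ASPN and PRELP were lowest in Adherent. Levels may be compared between libraries for a gene, not between genes, whose exon lengths differ.

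Decorin (DCN), the class I proteoglycan that binds type I collagen, was the most abundant member per length in the Adherent and Differentiating libraries. Its 3913, 20923 and 48007 exon reads in Suspension, Adherent and Differentiating gave 164 CPM (159 to 169), 1199 CPM (1183 to 1216) and 2104 CPM (2085 to 2123). Scaled to exon length, its levels of 100.3, 733 and 1286 CPM per kb ranked 822, 127 and 43 among all genes of the respective library. The log2 ratio was 2.87 for Adherent over Suspension and 3.68 for Differentiating over Suspension. Differentiating over Adherent was 0.81 (0.79 to 0.83), which is 1.75-fold and under the 2-fold limit used for a call.

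Asporin (ASPN), also of class I but without a glycosaminoglycan chain, binds collagen at the same kind of site as decorin and binds transforming growth factor beta. Its pattern was unlike that of decorin. It was at 192 CPM (186 to 198) in Suspension, 38.6 CPM (35.7 to 41.6) in Adherent and 317 CPM (309.5 to 324) in Differentiating. The Adherent library was the low one, by a log2 ratio of -2.32 (-2.43 to -2.20) to Suspension, and Differentiating was 8.21-fold above Adherent. Between Differentiating and Suspension the log2 ratio of 0.72 (0.67 to 0.78) did not reach 2-fold.

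Lumican (LUM), a class II member that limits the lateral growth of collagen fibrils, was higher in each library in turn, from Suspension through Adherent to Differentiating. It had 763, 7674 and 34694 exon reads in Suspension, Adherent and Differentiating, or 32.0 CPM (29.8 to 34.4), 439.9 CPM (430.1 to 449.9) and 1521 CPM (1505 to 1537). Its rank by CPM per kb moved from 4804 in Suspension to 315 in Adherent and 112 in Differentiating. Differentiating was 47.5-fold above Suspension, a log2 ratio of 5.57 (5.47 to 5.68) that ranked 66 of 10929 genes, and 3.46-fold above Adherent.

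PRELP, the proline- and arginine-rich class II protein that ties basement membrane heparan sulphate to collagen, followed asporin rather than lumican. Its levels were 485 CPM (476 to 494) in Suspension, 189 CPM (183 to 196) in Adherent and 1032 CPM (1019 to 1045) in Differentiating. Per length it was the most abundant member in Suspension, at 237 CPM per kb and rank 305 among genes of that library. Adherent was 2.56-fold below Suspension. Differentiating was 2.13-fold above Suspension and 5.45-fold above Adherent, so that the Differentiating and Suspension libraries differed only a little past the limit.

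Fibromodulin (FMOD), a class II regulator of collagen assembly best known from tendon and cartilage, was highest in Adherent. It had 8 exon reads in Suspension, 684 in Adherent and 123 in Differentiating, that is 0.336 CPM (0.145 to 0.661), 39.2 CPM (36.3 to 42.3) and 5.39 CPM (4.48 to 6.43). Adherent stood 117-fold above Suspension, with a log2 ratio of 6.87 (5.88 to 8.09), and Differentiating was 7.27-fold below Adherent. Keratocan (KERA), the class II keratan sulphate proteoglycan of the cornea, had the same order at lower levels. It had 3, 158 and 22 exon reads in Suspension, Adherent and Differentiating, or 0.126 CPM (0.0259 to 0.368), 9.06 CPM (7.70 to 10.6) and 0.964 CPM (0.604 to 1.46). With only 3 reads in Suspension, its log2 ratio of 6.17 for Adherent over Suspension had an interval from 4.60 to 8.46. KERA passed 5 CPM only in Adherent.

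Osteoglycin (OGN), the class III member also called mimecan, was nearly undetected in Suspension and among the abundant genes of the Differentiating library. Its exon reads were 24 in Suspension, 4670 in Adherent and 28500 in Differentiating, giving 1.01 CPM (0.645 to 1.5), 268 CPM (260.1 to 275) and 1249 CPM (1235 to 1264). Differentiating over Suspension was a log2 ratio of 10.28 (9.70 to 10.92), rank 4 of 10929 genes, and Adherent over Suspension was 8.06 (7.48 to 8.70), rank 68 of 11020. Differentiating was 4.67-fold above Adherent. Only 12.5%, 14.1% and 17.0% of its exon reads in Suspension, Adherent and Differentiating were counted as unique to 1 gene. The gene lies within CENPP in the table's annotation. On the unique reads, 3, 657 and 4832 in that order, the log2 ratios were 8.23 (6.67 to 10.51) for Adherent over Suspension and 10.71 (9.16 to 12.99) for Differentiating over Suspension.

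Podocan (PODN), a class V member that binds type I collagen, split the libraries into a low one and a pair at one level. It was at 18.2 CPM (16.6 to 20.0) in Suspension, 235 CPM (227 to 242) in Adherent and 232 CPM (226 to 239) in Differentiating. The intervals of Adherent and Differentiating overlapped, and their log2 ratio of -0.014 had an interval from -0.07 to 0.05. Each was above Suspension, by 12.9-fold in Adherent and 12.7-fold in Differentiating.

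Dermatopontin (DPT) has no leucine-rich repeats but binds decorin and speeds the assembly of collagen fibrils. It had 5 exon reads in Suspension, 1433 in Adherent and 2934 in Differentiating, or 0.210 CPM (0.0681 to 0.489), 82.1 CPM (77.9 to 86.5) and 129 CPM (124 to 133). Its log2 ratios over Suspension were 8.61 (7.39 to 10.24; rank 41 of 11020) for Adherent and 9.26 (8.04 to 10.88; rank 10 of 10929) for Differentiating. Differentiating over Adherent was 1.57-fold, under the limit. The annotation places DPT inside LOC104913508, which has an exon length of 0 there and so could hold no exon reads. LOC104913508 had 24, 80 and 23 intron reads in Suspension, Adherent and Differentiating. The reads of DPT unique to 1 gene were 0 in Suspension, 223 in Adherent and 544 in Differentiating. With the Suspension count of 0 set to the floor of 3 reads in that library, the unique reads give log2 ratios of at least 6.67 for Adherent and at least 7.56 for Differentiating.

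Set against all genes and with the libraries as headed, most members were higher in Adherent and in Differentiating than in Suspension. In Adherent over Suspension, 7 of 9 were at least 2-fold higher (20.0% of all genes tested) and 2, ASPN and PRELP, at least 2-fold lower (21.6% of all genes). KERA, among the 7, passed 5 CPM only through Adherent, at 9.06 CPM, so the minimum favours its call as high there. FMOD, OGN and DPT passed only through Adherent and Differentiating, so it also favours their calls as high over Suspension. The members' median log2 ratio was 3.78, against -0.15 for all genes. In Differentiating over Suspension, 8 were higher (9.16% of all genes) and 0 lower (14.5%), with ASPN between the limits, and the medians were 3.68 for the members and -0.18 for all genes. KERA, counted among the 8, was under 5 CPM in both of these libraries, at 0.964 CPM in Differentiating and 0.126 CPM in Suspension. In Differentiating over Adherent, 4 were higher (18.3% of all genes), namely ASPN, LUM, PRELP and OGN. FMOD and KERA were lower (22.7% of all genes), DCN, PODN and DPT lay between the limits, and the medians were 0.81 and -0.05. For KERA, Adherent was again the only library through which it passed the minimum. These comparisons share libraries and are not independent.

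The heading question bears on each of these counts. With Suspension and Adherent exchanged, 2 members were higher and 7 lower in Adherent over Suspension, 4 higher and 2 lower in Differentiating over Suspension, and 8 higher and 0 lower in Differentiating over Adherent. What does not depend on it is the place of the Differentiating library. LUM, PRELP and OGN were at least 2-fold higher there than in each of the other libraries, which held for 3.92% of all genes. For PRELP this rested on the kind of read, since reads across exon junctions gave a log2 ratio of 0.81 (0.68 to 0.94) for Differentiating over Suspension, under the limit. No member was lowest there.

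**Figure D2:**
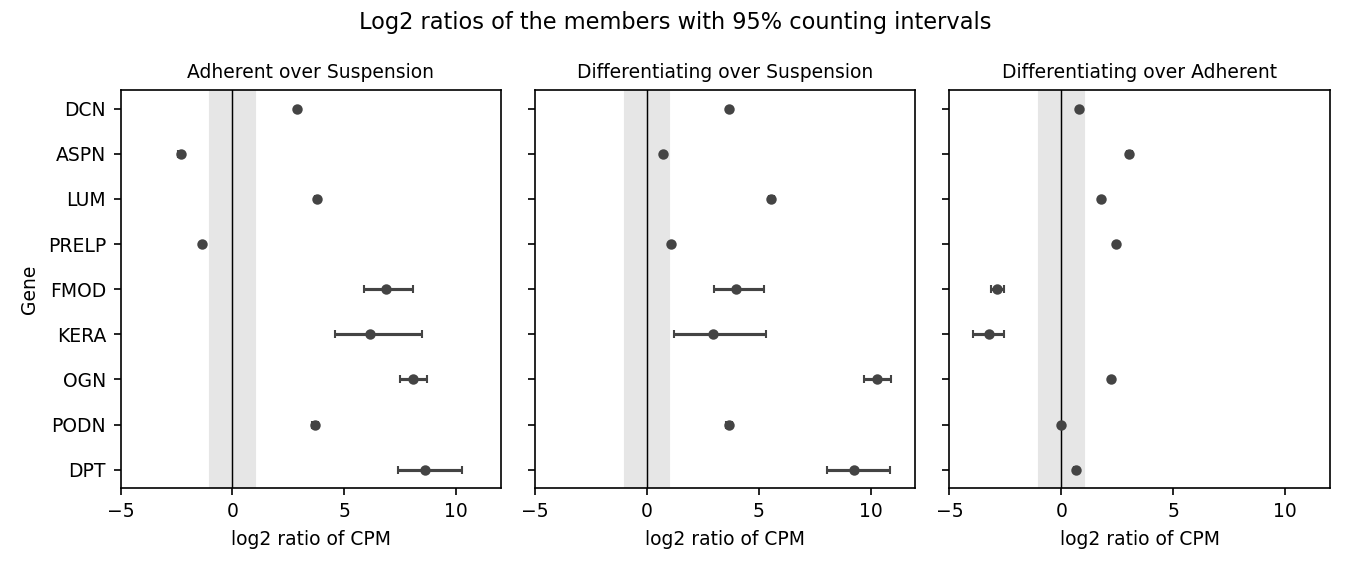
Log2 ratio of CPM of each member for the 3 pairs of libraries, with exact 95% counting intervals as bars. OGN and DPT reached 10.28 and 9.26 in Differentiating over Suspension, whereas ASPN and PRELP were at -2.32 and -1.36 in Adherent over Suspension.

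The large ratios were concentrated in a few members. In Adherent over Suspension, FMOD, KERA, OGN and DPT were at least 16-fold higher, as were 4.88% of all genes. In Differentiating over Suspension, LUM, FMOD, OGN and DPT were at least 16-fold higher, as were 1.26% of all genes. In Differentiating over Adherent 0 members were at least 16-fold higher, against 1.42% of all genes, and ASPN reached 8.21-fold. These large folds rest on low counts in Suspension, except for LUM with 763 reads. FMOD, OGN and DPT passed 5 CPM only in Adherent and Differentiating, and KERA only in Adherent. The minimum therefore favours their calls as high over Suspension.

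The members followed 3 of the 6 possible orders of the libraries. DCN, LUM, OGN and DPT were lowest in Suspension, between in Adherent and highest in Differentiating, an order held by 5.88% of all genes. FMOD, KERA and PODN were highest in Adherent and lowest in Suspension, as were 14.9% of all genes, although PODN in Adherent and Differentiating did not differ beyond counting error. ASPN and PRELP were highest in Differentiating and lowest in Adherent, as were 16.8% of all genes. By library, 6 members were highest in Differentiating (22.7% of all genes), 3 in Adherent (38.5%) and 0 in Suspension (38.8%), and 7 were lowest in Suspension (21.0%), 2 in Adherent (42.2%) and 0 in Differentiating (36.8%). The 7 lowest in Suspension were at least 2-fold higher in both other libraries, as were 5.48% of all genes. KERA, among the 7, was under 5 CPM in Suspension and in Differentiating. Class membership did not sort them, since class I held DCN and ASPN in different orders and class II was spread over all 3. In all, 5 members reached 5 CPM in every library, while FMOD, OGN and DPT did so only in Adherent and Differentiating.

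The makeup of the family changed with the library. On the scale of CPM per kb, PRELP made up 49.8% of the members' sum in Suspension, with ASPN at 25.1% and DCN at 21.1%. In Adherent, DCN took 59.3% and LUM 16.9%, and PRELP was at 7.48%. In Differentiating, DCN was at 40.8%, LUM at 22.9%, PRELP at 15.99%, OGN at 10.4% and ASPN at 6.24%. The sums themselves were 476, 1236 and 3155 CPM per kb in Suspension, Adherent and Differentiating.

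**Figure D3:**
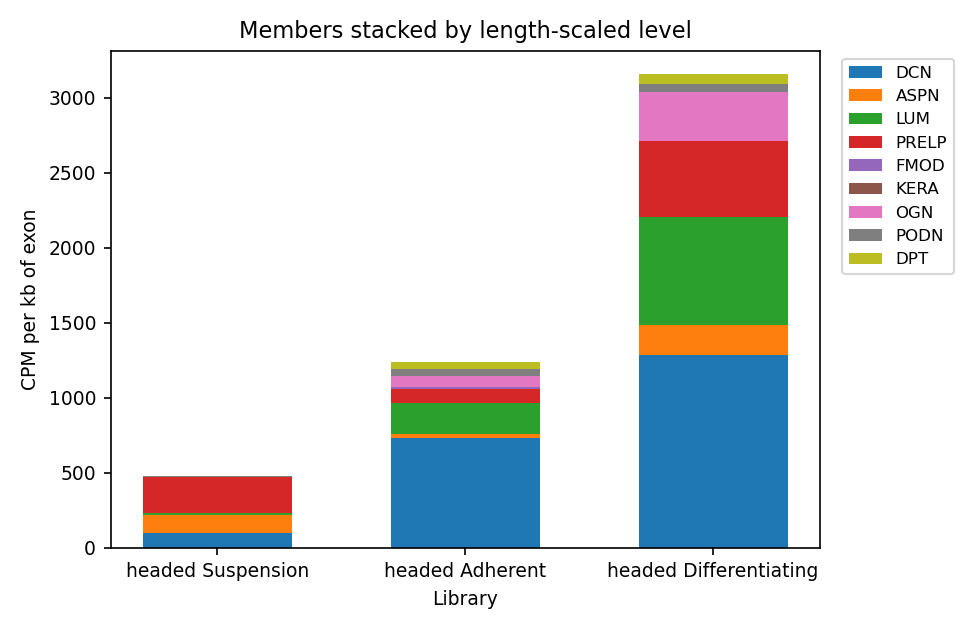
Stacked bars of the members' levels in CPM per kb of exon for each library, with the height of a bar giving the sum over the 9 members. The bar rises from 476 in Suspension to 3155 in Differentiating, and PRELP, at 49.8% of the Suspension bar, gives way to DCN and LUM.

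Neighbours on a chromosome did not share a pattern as a rule. In the chromosome 1 group, epiphycan (EPYC), KERA, LUM and DCN stood 22.6, 9.36 and 19.2 kb apart. All 4 were lowest in Suspension, and LUM and DCN were highest in Differentiating while EPYC and KERA were highest in Adherent. EPYC, a cartilage proteoglycan, had only 0, 19 and 2 reads in Suspension, Adherent and Differentiating. In the chromosome 14 group, ECM2, ASPN, osteomodulin (OMD) and OGN were 13.2, 12.2 and 3.89 kb apart. OMD, a bone proteoglycan, was at 3.40 CPM in Suspension, 0.745 in Adherent and 14.9 in Differentiating. That is the order of ASPN, whereas OGN at the other side of OMD was lowest in Suspension. Only 4 of 81, 0 of 13 and 7 of 340 exon reads of OMD in Suspension, Adherent and Differentiating were unique to 1 gene. ECM2, with leucine-rich repeats like the others, was at 106, 107 and 118 CPM in the 3 libraries, but only 20.5%, 12.0% and 17.8% of its reads were unique to 1 gene.

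In the chromosome 28 group, neighbours again differed. PRELP was 23.3 kb from FMOD and 3.87 kb from opticin (OPTC), a proteoglycan of the vitreous of the eye. OPTC was at 26.8 CPM in Suspension, 146 in Adherent and 1.31 in Differentiating. Its log2 ratio of Differentiating over Adherent was -6.80, while that of PRELP beside it was 2.45 and that of FMOD was -2.86.

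**Figure D4:**
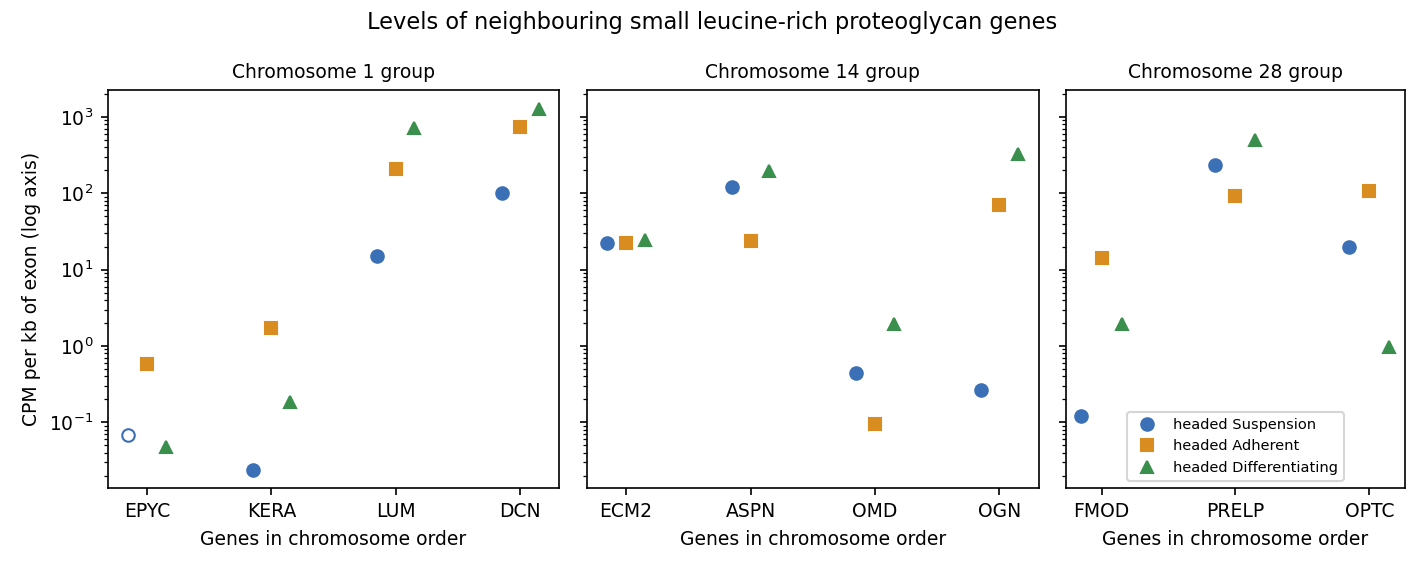
Levels in CPM per kb of exon, on a log axis, of neighbouring small leucine-rich proteoglycan genes in chromosome order. Symbols mark the libraries by heading, and the open circle marks EPYC in Suspension, with 0 reads, drawn at the floor of 3 reads. Within the chromosome 28 group, PRELP is highest in Differentiating and OPTC in Adherent.

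The other small leucine-rich proteoglycans did not move as a group. Of 10 listed, 8 were found and 7 passed the minimum of 5 CPM. Of these, 3 were higher and 2 lower in Adherent over Suspension, with a median log2 ratio of 0.02. In Differentiating over Suspension 2 were higher and 2 lower, with a median of -0.28, and in Differentiating over Adherent 2 were higher and 3 lower, with a median of -0.22. Of all genes tested, 20.0% were higher and 21.6% lower in Adherent over Suspension. These shares were 9.16% and 14.5% in Differentiating over Suspension and 18.3% and 22.7% in Differentiating over Adherent. They apply to each later list too. Nyctalopin (NYX), a protein of retinal bipolar cells, was at 1.51 CPM in Suspension, 33.8 in Adherent and 0.482 in Differentiating. Chondroadherin (CHAD), a cartilage protein that binds integrins, was at 3.86, 39.2 and 18.2 CPM in that order. In Adherent, 825 of 1415 NYX gene reads were in introns, and 1 of 590 exon reads crossed a junction. Only 15.2%, 19.6% and 14.2% of CHAD exon reads were unique to 1 gene in Suspension, Adherent and Differentiating. Tsukushi (TSKU), which binds bone morphogenetic proteins and Wnt receptors, was at 198, 78.5 and 162 CPM.

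The kinds of reads behind the members differed. For 6 members every exon read was unique to 1 gene, and the exceptions were ASPN, OGN and DPT, each of which overlaps another annotated gene. About the same share of ASPN reads was unique in each library, at 49.3%, 49.6% and 51.4% in Suspension, Adherent and Differentiating, and its ratios on unique reads, -2.31, 0.77 and 3.08, were close to those on all reads. CENPP, which spans ASPN and OGN, had only 115, 53 and 108 exon reads in the same order. Reads across exon junctions of OGN gave log2 ratios of 8.38 for Adherent over Suspension and 10.57 for Differentiating over Suspension. Of the 5492 unique reads of OGN, 5488 were junction reads, as were all 6305 of ASPN and all 767 of DPT. For these 3 genes the junction and unique ratios are therefore not separate checks.

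**Figure D5:**
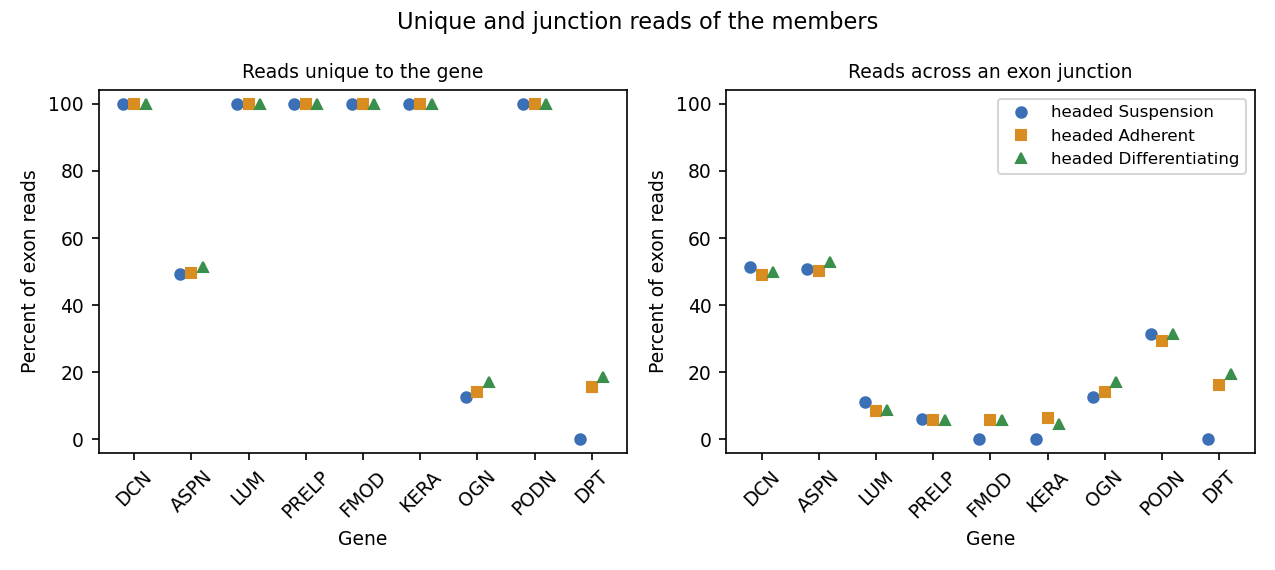
Percent of each member's exon reads that were unique to 1 gene and percent that crossed an exon junction, by library. ASPN, OGN and DPT fall below 100% unique, and DPT in Suspension, with 5 exon reads, has none.

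Few of the members' reads were in introns. The intron share of gene reads was 1.53% in Suspension, 0.994% in Adherent and 0.943% in Differentiating for DCN, and 0.780%, 0.531% and 0.273% for LUM, against 15.2%, 24.3% and 12.0% over all genes. PODN had the highest share among the 5 members that reached 5 CPM in every library, at 11.2% (8.57 to 14.4) in Suspension, 9.71% (8.86 to 10.6) in Adherent and 5.99% (5.39 to 6.64) in Differentiating. The share of PRELP was higher in Adherent, 2.13%, than in Suspension, 0.899%, or Differentiating, 0.742%. ASPN was likewise highest in Adherent, with 1.25% in Suspension, 3.03% in Adherent and 1.31% in Differentiating. For DPT in Suspension, 10 of its 15 gene reads were in introns, and LOC104913508 had 24 intron reads in that library. FMOD in Suspension had 4 of 12.

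Genes of like pattern were found by the distance between log2 CPM values centred over the 3 libraries (0 for the same pattern), as a description over only 3 points among 8719 genes. The nearest to PRELP was P3H1, a collagen prolyl hydroxylase, at a distance of 0.0112, and the nearest to PODN were FBN1, the microfibril protein fibrillin, at 0.0933, IL6 at 0.110 and HAS2, a hyaluronan synthase, at 0.259. TMEM204 at 0.0652, TAAR1 at 0.141 and HOXB3 at 0.192 were nearest to DCN, and SFXN1 at 0.0666, LPCAT2 at 0.0872 and PYCR1 at 0.128 to ASPN. PRELP was further followed by SRXN1 at 0.0531 and SLC4A11 at 0.0720.

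The nearest genes of LUM, OGN and DPT lay at larger distances than those of the other members. LUM was nearest to CAMK1D at 0.528, MALL at 0.555 and CDH11, a mesenchymal cadherin, at 0.559. OGN was nearest to PI15 at 0.855, to DPT at 1.13 and to SCARA3 at 1.25, and DPT to SPON2 at 1.01, OGN at 1.13 and PI15 at 1.27. FMOD was nearest to RADIL at 0.0973, F3, the tissue factor of coagulation, at 0.107, and ANGPT4 at 0.222. KERA was nearest to WASF3 at 0.209, ZPLD1 at 0.241 and C12H15orf48 at 0.269. OGN and DPT were thus the only members among each other's nearest genes.

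Most of the collagens and other matrix partners of these proteins were lower in Adherent than in Suspension and higher in Differentiating than in Adherent, as ASPN and PRELP were. The growth factors of the list were not highest in Differentiating. Of 18 listed, 14 were found and 13 tested, and the medians of all genes for the same comparisons were -0.15, -0.18 and -0.05. Of the 13, 1 was higher and 9 lower in Adherent over Suspension (median log2 ratio -1.46), in Differentiating over Suspension 10 were higher and 0 lower (1.76), and in Differentiating over Adherent 12 were higher and 0 lower (3.04). COL1A2, a chain of type I collagen and the main ligand of decorin, was at 10967 CPM in Suspension, 3977 in Adherent and 32780.2 in Differentiating. COL3A1, of type III collagen, was at 5696, 3475 and 21111 CPM in the same order. COL14A1, the fibril-associated type XIV collagen that binds decorin, was the 1 higher in Adherent, with 0.294, 24.6 and 83.1 CPM. COL12A1, its relative, was at 975, 34.4 and 2334 CPM, and FN1, fibronectin, at 3424, 586 and 15529 CPM. WISP1, a matricellular protein that binds decorin and biglycan, was at 1.89, 2.87 and 54.0 CPM. The growth factors TGFB2 and TGFB3 were highest in Suspension, at 40.3, 17.3 and 24.1 CPM and at 1404, 133 and 1014 CPM, and myostatin (MSTN), under the minimum in every library, was at 0.629, 2.41 and 0.219 CPM. They were added after their values were seen. COL1A2 was lower in Adherent than in Suspension, as were ASPN and PRELP, whereas the other 7 members were higher. With the headings Suspension and Adherent exchanged, the counts of Adherent over Suspension trade places in this and the following lists, and those of the other comparisons are swapped for each other.

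Enzymes that make the chondroitin, dermatan and keratan sulphate chains also differed mostly between Differentiating and Adherent. Of 32 listed, 28 were found and 27 tested. Adherent over Suspension had 3 higher and 9 lower (median log2 ratio -0.74), in Differentiating over Suspension 8 were higher and 2 lower (0.40), and in Differentiating over Adherent 18 were higher and 3 lower (1.41). The shares of all genes higher and lower were 20.0% and 21.6%, 9.16% and 14.5%, and 18.3% and 22.7% in these comparisons. UGDH, which makes the UDP-glucuronate for chondroitin chains, was at 186 CPM in Suspension, 208 in Adherent and 584 in Differentiating. CSGALNACT1, which starts the chondroitin chain, was at 2.60, 4.47 and 25.1 CPM in that order. CHST1, which sulphates keratan, was at 15.0, 0.401 and 8.77 CPM, and CHST11, which sulphates chondroitin, at 21.7, 2.01 and 16.1 CPM, so both were lowest in Adherent. CHSY3, a chondroitin synthase, was at 15.3, 1.15 and 2.59 CPM, and CHPF, a chondroitin polymerising factor, at 173, 106 and 128 CPM.

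Receptors for the soluble members were fewer. As headed, most of those tested were lower in Differentiating than in Adherent, with no common direction in the other comparisons. Of 11 listed, 7 were found and 6 tested. Adherent over Suspension had 2 higher and 1 lower (median log2 ratio 0.37), in Differentiating over Suspension 1 was higher and 1 lower (-0.01), and in Differentiating over Adherent 1 was higher and 4 lower (-1.19). MET, the hepatocyte growth factor receptor that decorin binds, was at 86.8 CPM in Suspension, 90.2 in Adherent and 12.9 in Differentiating. TGFBR2, a transforming growth factor beta receptor, was at 41.5, 256 and 118 CPM, EGFR at 16.2, 48.7 and 20.3 CPM, and IGF1R at 325, 521 and 193 CPM. ITGB1, the integrin beta chain, was at 1367, 607 and 1352 CPM.

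Proteases and other enzymes that process these proteins or their collagens were tested for 9 of 13 listed. There were 5 higher and 3 lower in Adherent over Suspension (median log2 ratio 1.52), in Differentiating over Suspension 6 were higher and 0 lower (1.66), and in Differentiating over Adherent 3 were higher and 5 lower (-1.13). ADAMTS1, ADAMTS4 and ADAMTS9, proteases that cut large proteoglycans, were highest in Adherent. ADAMTS1 was at 29.9 CPM in Suspension, 4299.9 in Adherent and 94.3 in Differentiating, ADAMTS4 at 4.24, 114 and 9.47 CPM and ADAMTS9 at 3.90, 169 and 36.9 CPM. MMP2, a gelatinase, was at 303, 110.1 and 1281 CPM, and LOX, which cross-links collagen, at 10.7, 4.47 and 75.8 CPM, both lowest in Adherent and highest in Differentiating.

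Markers of muscle and of other cell types moved between the libraries as well. Of 10 myogenic markers 5 were found, with summed levels of 5293, 7592 and 2794 CPM in Suspension, Adherent and Differentiating. The other 5, MYOG, CDH15, MYMK, CKM and MYH1, were not analysed here. MYOD1, which drives myoblast commitment, was at 768, 1522 and 93.8 CPM, and PAX7, the satellite cell factor, at 24.2, 4.93 and 1.10 CPM, so the Differentiating library was the lowest in both. ACTA1, the skeletal muscle actin, was at 1691, 4739 and 1756 CPM. DES was at 2781, 1064 and 940 CPM, and MYF5 at 29.7, 263 and 1.97 CPM. Fibroblast markers, 4 of 8 found, summed to 559, 183 and 1027 CPM, with THY1 at 253, 34.7 and 732 CPM, DDR2 at 297, 108 and 283 CPM, TCF21 at 8.93, 35.5 and 3.94 CPM and PDGFRA at 0.0419, 5.27 and 8.11 CPM. Chondrocyte markers, 7 of 8 found, summed to 52.8, 122 and 1000.5 CPM, of which COMP gave 33.5, 41.2 and 897 CPM. SOX9, MATN3 and ACAN were also highest in Differentiating, whereas CNMD at 11.7, 45.1 and 2.98 CPM, MATN1 at 0.0419, 28.3 and 0.0438 CPM and COL9A1 at 0.755, 1.61 and 0.526 CPM were highest in Adherent.

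Among the further lists, endothelial and leukocyte markers were high in Adherent alone. Tenocyte markers, 4 of 4 found, summed to 166, 4696 and 169.9 CPM in Suspension, Adherent and Differentiating, but EGR1, an immediate early gene, gave 158, 4684 and 142 CPM of this, and TNMD and SCX, the defining markers, were highest in Differentiating at 12.1 and 7.80 CPM. Endothelial markers, 4 of 6 found, summed to 3.94, 355 and 5.83 CPM, and leukocyte markers, 4 of 4, to 11.7, 119 and 13.9 CPM, and none of the markers given here was at 0 reads in any library. Smooth muscle and pericyte markers, 3 of 6, summed to 506, 594 and 1217 CPM. ACTA2, at 440, 277 and 699 CPM, and PDGFRB, at 65.3, 120 and 517 CPM, were highest in Differentiating. MYH11, at 1.01, 197 and 1.18 CPM, was high in Adherent alone. Osteoblast markers, 2 of 6, summed to 36.4, 6.65 and 109.7 CPM, and adipocyte markers, 4 of 5, to 269, 315 and 324 CPM. ADIPOQ was highest in Adherent, at 8.09, 210 and 29.4 CPM. PPARG, at 14.8, 14.8 and 38.3 CPM, and PLIN1, at 0.461, 0.344 and 9.16 CPM, were highest in Differentiating. LPL, at 246, 90.3 and 247 CPM, was lowest in Adherent. The part of these markers in the levels of the members was not tested.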

How the data were processed

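RNA of 3 culture groups was sequenced as 1 library per group. The authors demultiplexed reads with bcl2fastq 2.20, trimmed them with Skewer, aligned them with STAR 2.5.2b and counted them with featureCounts, though no source used here says that these steps made the deposited table. The deposited counts are unscaled reads per gene on exons, introns, junctions and whole genes, with unique reads beside them. The deposited fold-change scores are the authors' ratios between libraries, and served only to check the headings, in genes with at least 10 reads in both libraries. CPM were made by dividing counts by the exon reads of the library. Genes needed 5 CPM in 1 library or more to be tested, and a call was a ratio of at least 2-fold with no pseudocount. A ratio was left out if neither count passed the floor of 3. Intervals of 95% are exact Poisson for levels and exact Clopper-Pearson for ratios and shares. Software was Python 3.11.15 with pandas 2.3.3, numpy 2.4.6, scipy 1.17.1 and matplotlib 3.10.9, and R 4.3.3 with edgeR 4.0.16 for the TMM factors.

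The calls were tested on simulated data drawn with Poisson counting error only. These hold no spread between cultures, so they cannot show how far the calls would repeat. Alternatives were pseudocounts of 1 and 10 CPM, a minimum of 50 CPM or none, scaling by TMM, by the median of ratios, by the upper quartile and by totals that omit the 10 most abundant genes, other limits (1.5-fold, 4-fold, or the whole interval past 2-fold), unique reads, exon with intron reads and exchanged headings. Junction reads were added after the data were seen. The members and lists were chosen with earlier results of these data known. Of each list other than the marker lists, up to 4 genes with the largest ratios and the 2 of highest mean CPM were named. Marker lists were given as sums, with only some of their genes named. The 3 genes of nearest pattern for each member and the neighbours within 100 kb were named too. Chromosome positions are those of the deposited table with starts counted from 1. Of 9 members, 7 were found by symbol in RefSeq Turkey_5.1, and 89.6% of 18878 shared symbols had a start within 5000 bases. The result of 1 marker list is not reported here.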

Additional observations from a re-analysis of the deposited data

How the results depend on the processing

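Of 290 member ratios under settings other than exchanged headings, 5 changed sign, all of them PODN in Differentiating over Adherent. That ratio went from -0.014 to 0.043 with TMM, 0.028 with median-of-ratios and 0.065 with upper quartile scaling. It was 0.13 without the 10 most abundant genes and 0.14 with intron reads. The 290 include 27 ratios with no filter and 21 with a minimum of 50 CPM, which could not change because a filter alters no ratio. The count of members lower in Differentiating over Adherent went from 2 to 1 with a pseudocount of 10 CPM and to 0 with a minimum of 50 CPM, which left 7 members, and the count lower in Adherent over Suspension went to 1 with a limit of 4-fold. The count higher in Differentiating over Suspension went from 8 to 7 with a pseudocount of 1 CPM and to 6 with 10 CPM, and was 6 of the 8 that had a ratio on junction reads. The count higher in Adherent over Suspension went from 7 to 6 with a pseudocount of 10 CPM, and that higher in Differentiating over Adherent from 4 to 5 with intron reads, where DCN was at 1.03. With exchanged headings, Adherent over Suspension had 2 members higher and 7 lower, Differentiating over Suspension 4 higher and 2 lower, and Differentiating over Adherent 8 higher and 0 lower. The log2 ratios that changed sign were, in Adherent over Suspension, -2.87 for DCN, 2.32 for ASPN, -3.78 for LUM, -6.87 for FMOD, -6.17 for KERA, 1.36 for PRELP, -8.06 for OGN, -3.68 for PODN and -8.61 for DPT. In Differentiating over Suspension they were -2.86 for FMOD, -3.23 for KERA and -0.014 for PODN, and in Differentiating over Adherent 4.01 for FMOD, 2.94 for KERA and 3.67 for PODN.

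TMM scaling moved the median log2 ratio of all genes from -0.15 to -0.01 in Adherent over Suspension and from -0.18 to 0.02 in Differentiating over Suspension. The genes higher and lower then went from 2203 and 2385 to 2435 and 2035 in the former, and from 1001 and 1580 to 1262 and 1233 in the latter. PRELP was at -1.22 and 1.29 under TMM in these comparisons. With a pseudocount of 10 CPM, 1311 genes were higher and 1291 lower in Adherent over Suspension, 469 and 729 in Differentiating over Suspension, and 1090 and 1490 in Differentiating over Adherent. Depth limits FMOD, KERA, OGN and DPT in Suspension, where they had 8, 3, 24 and 5 reads. No paired analysis was possible because each group has 1 library.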

Other observations

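Proteoglycans outside the leucine-rich family were split between the Adherent and Differentiating libraries. Of 20 listed, 18 were found and 16 reached 5 CPM in at least 1 library. In Adherent over Suspension 9 were at least 2-fold higher and 5 lower, with a median log2 ratio of 1.44 against -0.15 for all genes. In Differentiating over Suspension 9 were higher and 2 lower (1.29 against -0.18), and in Differentiating over Adherent 5 were higher and 5 lower (0.34 against -0.05). With the headings Suspension and Adherent exchanged, the first of these counts turns to 5 higher and 9 lower. As headed, 20.0% of all genes were higher and 21.6% lower in Adherent over Suspension. These shares were 9.16% and 14.5% in Differentiating over Suspension and 18.3% and 22.7% in Differentiating over Adherent. Versican (VCAN), a large chondroitin sulphate proteoglycan of young connective tissue, was at 365 CPM in Suspension, 22.2 in Adherent and 515 in Differentiating. Aggrecan (ACAN), the main proteoglycan of cartilage, was at 0.0419, 0.401 and 75.4 CPM in that order, and brevican (BCAN) at 20.8, 1.15 and 52.2 CPM. Serglycin (SRGN), which packs the granules of blood cells, had 0 reads in Suspension, 220 in Adherent and 21 in Differentiating, and was at least 100.2-fold higher in Adherent when Suspension was set to the floor of 3 reads. TGFBR3, the transforming growth factor receptor also called betaglycan, was at 0.126, 8.43 and 1.97 CPM in Suspension, Adherent and Differentiating, and the glypican GPC4 at 532, 173 and 746 CPM.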
